A study of Homo sapiens with 5 samples.

Results

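SOCS3 and the genes that carry a gp130 signal through STAT3 are described here in RH4 cells, an established human line of alveolar rhabdomyosarcoma, after knock-down of a circular RNA. The 10 genes (SOCS3, SOCS2, SOCS4, SOCS5, SOCS6, SOCS7, STAT3, IL6ST, LIFR and JAK1) were chosen by name, with results of the same comparison known, so their values are given as a description and without a test. Of the 10, 9 had a row in the table of 13822 genes, and LIFR had none. The cells received 30 nM of either a control siRNA (si-SCR, 3 libraries) or an siRNA against the back-splicing junction of circVAMP3 (si-circVAMP3, 2 libraries). Collection followed 2 days after transfection, with fresh medium halfway, and poly-A+ RNA was sequenced with a strand-specific kit. Values are FPKM, which the authors computed for each library as fragments scaled to the length of the gene and to a library size. Whole reads recovered from these values summed to 26332967, 24946509 and 24835912 in si-SCR replicates 1, 2 and 3, and to 18552661 and 28705009 in si-circVAMP3 replicates 1 and 2.

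Cytokines of the interleukin-6 family bind receptors that share the signalling chain gp130, the product of IL6ST. Janus kinases such as JAK1 sit on this chain and phosphorylate it and STAT3, which moves to the nucleus and raises transcription of its targets, SOCS3 among them. SOCS3 protein then binds gp130 and the kinase and shuts the signal down, and the other SOCS proteins act in a like manner on other receptors. In muscle the pathway acts in satellite cells and in regeneration.

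The siRNA that separates the groups is shown because its sequence sets which RNA it can pair with. Capitals mark the bases that match the start of exon 3 of the VAMP3 mRNA in the GENCODE annotation, the lower-case bases before them match the end of exon 4, and the last 2 bases are an overhang.
si-circVAMP3: caucaucgGUGGUGGACAUuu
Without the overhang, 8 bases came from exon 4 and 11 from exon 3, an order that linear splicing does not produce. The joined sequence had 0 matches over its full length in the linear mRNA. Each of its 2 parts does lie in the linear mRNA, and pairing over part of the length was not tested. The circle itself has no row of its own in the table, so the knock-down cannot be read from it. The linear host gene VAMP3, on chr1:7771296-7781432 of GRCh38 (plus strand), had 36.4, 35.4 and 37.4 FPKM in the si-SCR libraries and 29.4 and 30.2 in the si-circVAMP3 libraries. Both si-circVAMP3 libraries lay below all 3 si-SCR libraries, a mean 18.2% lower, with a log2 difference of −0.29 ± 0.04 (SE, limma adjusted p = 0.00507). All differences here are si-circVAMP3 minus si-SCR on the log2(FPKM + 0.1) scale, which understates changes of low genes, and a gene was called at an adjusted p under 0.05 over all genes tested. The VAMP3 call was lost without si-circVAMP3 replicate 1 (limma adjusted p = 0.0525, with a range of 0.00258 to 0.0525 over 14 alternatives).

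The labelled cell type was checked against its markers. Of 12 rhabdomyosarcoma markers, 10 were in the table, with a summed level of 947, 925 and 783 FPKM in the si-SCR libraries and 749 and 766 in the si-circVAMP3 libraries. DES, the muscle intermediate filament desmin, was the most abundant, at 291, 291 and 249 against 266 and 248 FPKM. The myogenic factor MYOD1 stood at 115, 105 and 84.3 against 106 and 127 FPKM, and MYF5 and MYF6 had no row. MYOG, a later myogenic factor, was lower, at 175, 179 and 149 against 101 and 96.6 FPKM (log2 difference −0.76 ± 0.08, limma adjusted p = 0.00159). In bulk RNA, fewer cells with a transcript and less of it per cell cannot be told apart. Of the 10 markers 2 were called lower, where 14.7% of all genes were. FOXO1 was the other of the 2 (log2 difference −0.28 ± 0.07, limma adjusted p = 0.0259), a call lost without si-SCR replicate 2, si-circVAMP3 replicate 1 or si-circVAMP3 replicate 2 (limma adjusted p = 0.0874, 0.161 and 0.0819, with a range of 0.0128 to 0.161 over 14 alternatives), and none was called higher. DES, FGFR4 and CDH15 were not called with all libraries, and of the 5 fits that left out 1 library each was called lower only in the fit without si-SCR replicate 3 (limma adjusted p = 0.0308, 0.00419 and 0.00577, with ranges of 0.0308 to 0.759, 0.00419 to 0.371 and 0.00577 to 0.535 over 14 alternatives). None of 4 leukocyte and none of 3 epithelial markers was in the table, 1 of 3 endothelial markers was (PECAM1, 0.0777 to 0.153 FPKM), and 3 of 6 fibroblast markers were, with a summed level of 1.12 to 1.27 FPKM. DCN was the most abundant of these, at 0.545 to 0.813 FPKM. PDGFRB was called higher, at 0.226, 0.258 and 0.225 against 0.355 and 0.37 FPKM (limma adjusted p = 0.0495), a call lost without any 1 of the 5 libraries (limma adjusted p from 0.0875 to 0.195, and from 0.0138 to 0.195 over 13 alternatives) and with a pseudocount of 1 or 0.01 (0.0524 and 0.0534). The part of these marker differences in the values of the named genes was not tested.

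After knock-down the receptor chain was lower and STAT3 was higher. IL6ST, on chr5:55935095-55995022 (minus strand), had 15.4, 15.8 and 14.8 FPKM in the si-SCR libraries and 12.5 and 11.8 FPKM in the si-circVAMP3 libraries. The groups did not overlap, and the mean was 20.9% lower after knock-down, with a log2 difference of −0.34 ± 0.05. STAT3, on chr17:42313324-42388540 (minus strand), had 10.4, 10.4 and 10.6 FPKM in the si-SCR libraries and 12.8 and 12.6 FPKM in the si-circVAMP3 libraries. These groups did not overlap either, and the mean was 1.22-fold higher, with a log2 difference of 0.28 ± 0.05. JAK1, the kinase between them, on chr1:64833223-65067754 (minus strand), had 5.18, 5.07 and 5.11 FPKM against 5.43 and 5.31 FPKM. Its groups were apart by little, at 1.05-fold and a log2 difference of 0.07 ± 0.06, about the size of its error. The annotation lists 6 other genes that overlap JAK1 on its strand. Reads that fall on exons of 2 genes are left out by the authors' counting mode. The overlap was found between whole gene spans and shared exons were not checked, so the level of JAK1 may be less certain. The same limit applies to SOCS5, which 1 such gene overlaps, and to other genes given here, among them CNTF, JAK2, SHC1 and EPOR. LIFR, which pairs with gp130 in the receptor for leukemia inhibitory factor, had no row, and the table was filtered on low counts, so no level can be given for it.

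SOCS3, the feedback inhibitor of this receptor chain, showed the widest difference among the 9 genes. It lies on chr17:78356778-78360077 (minus strand) and had 2.13, 1.89 and 1.58 FPKM in the si-SCR libraries and 4.36 and 4.83 FPKM in the si-circVAMP3 libraries. The lowest si-circVAMP3 library held over double the level of the highest si-SCR library. The group means were 1.87 ± 0.272 (SD, n = 3) and 4.59 ± 0.329 FPKM (SD, n = 2), a 2.46-fold difference and a log2 difference of 1.26 ± 0.13. These values rest on 155, 129 and 108 reads in the si-SCR libraries and 221 and 380 reads in the si-circVAMP3 libraries, so SOCS3 was a gene of modest depth. Of the 13681 genes tested, 9 had a higher difference than SOCS3. The gene was chosen with results of this comparison known, so its place is only a description.

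The other SOCS genes differed among themselves. SOCS7, whose product acts on insulin and prolactin signalling, had 5.98, 6.1 and 6.05 FPKM in the si-SCR libraries and 5.11 and 4.65 FPKM in the si-circVAMP3 libraries. It was the 1 SOCS gene among the 9 that was lower after knock-down in both libraries, at 0.808-fold and a log2 difference of −0.30 ± 0.07. SOCS2, best known as a brake on growth hormone signalling, had 0.452, 0.42 and 0.52 FPKM against 0.483 and 0.718 FPKM. Only si-circVAMP3 replicate 2 stood above the si-SCR libraries, and the groups overlapped (log2 difference 0.30 ± 0.18, 0.54 without si-circVAMP3 replicate 1 and 0.05 without si-circVAMP3 replicate 2). SOCS6 had 4.69, 4.43 and 4.71 FPKM against 4.76 and 4.92 FPKM, and its groups were separated by a margin smaller than the spread among the si-SCR libraries (log2 difference 0.07 ± 0.07, 0.041 without si-SCR replicate 2 and 0.045 without si-circVAMP3 replicate 2). SOCS4 and SOCS5, a related pair that acts on epidermal growth factor receptor signalling, overlapped between groups. SOCS4 had at most 13.5 FPKM in si-SCR and 13.0 and 13.4 FPKM in si-circVAMP3, with means of 12.6 and 13.2, and SOCS5 ranged from 2.57 to 3.02 FPKM in si-SCR and from 2.74 to 2.83 FPKM in si-circVAMP3. Their log2 differences were 0.06 ± 0.06, about the size of its error, and 0.03 ± 0.10. For SOCS4 it was 0.028 without si-SCR replicate 2, 0.109 without si-SCR replicate 3 and 0.041 without si-circVAMP3 replicate 2. The sign for SOCS5 turned without si-SCR replicate 1 (−0.003) or 2 (−0.013), and its difference was 0.098 without si-SCR replicate 3.

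**Figure D1:**
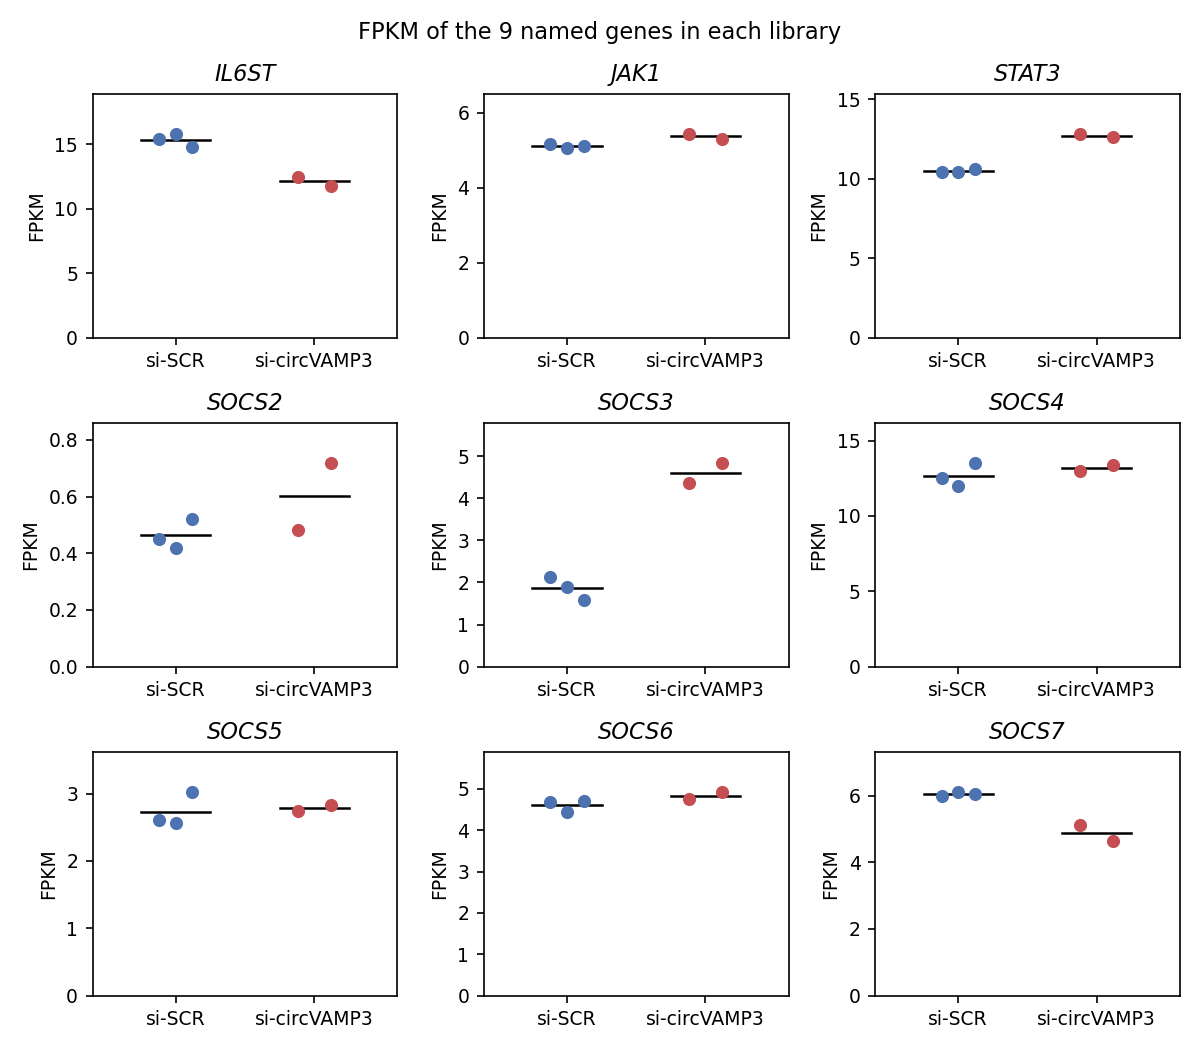
FPKM (y axis, from 0) of the 9 named genes in the 3 si-SCR libraries (blue) and the 2 si-circVAMP3 libraries (red), 1 point a library, with a bar at each group mean. SOCS3 lies at 1.58 to 2.13 FPKM in si-SCR and at 4.36 to 4.83 FPKM in si-circVAMP3, STAT3 was higher, IL6ST and SOCS7 were lower, and SOCS2, SOCS4 and SOCS5 overlapped between groups.

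FPKM is a level per length, so the genes can be ranked within a group. In the si-SCR libraries the mean levels fell in the order IL6ST, SOCS4, STAT3, SOCS7, JAK1, SOCS6, SOCS5, SOCS3 and SOCS2, from 15.4 down to 0.464 FPKM, and no 2 neighbours in this order overlapped. In the si-circVAMP3 libraries the order was SOCS4, STAT3, IL6ST, JAK1, SOCS7, SOCS6, SOCS3, SOCS5 and SOCS2, from 13.2 down to 0.601 FPKM. IL6ST thus stood at place 1 in si-SCR and at place 3 in si-circVAMP3, below STAT3. SOCS3 stood above SOCS5 and in the range of SOCS6 and SOCS7, and the neighbours SOCS7, SOCS6 and SOCS3 overlapped in these libraries.

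The values of the 2 groups did not overlap for 6 of the 9 genes, 4 higher and 2 lower after knock-down. Over all 13822 genes the same held for 56.4%, and nothing is read from the members' count because they were selected on this contrast. The median log2 difference was 0.07 over the 9 genes and 0.003 over all genes tested, and the median size of the difference was 0.28 against 0.17. Because of the same selection, nothing is read from these medians either. In the plot of all genes SOCS3 lay near the upper edge at its level, with JAK1, SOCS4, SOCS5 and SOCS6 close to 0.

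**Figure D2:**
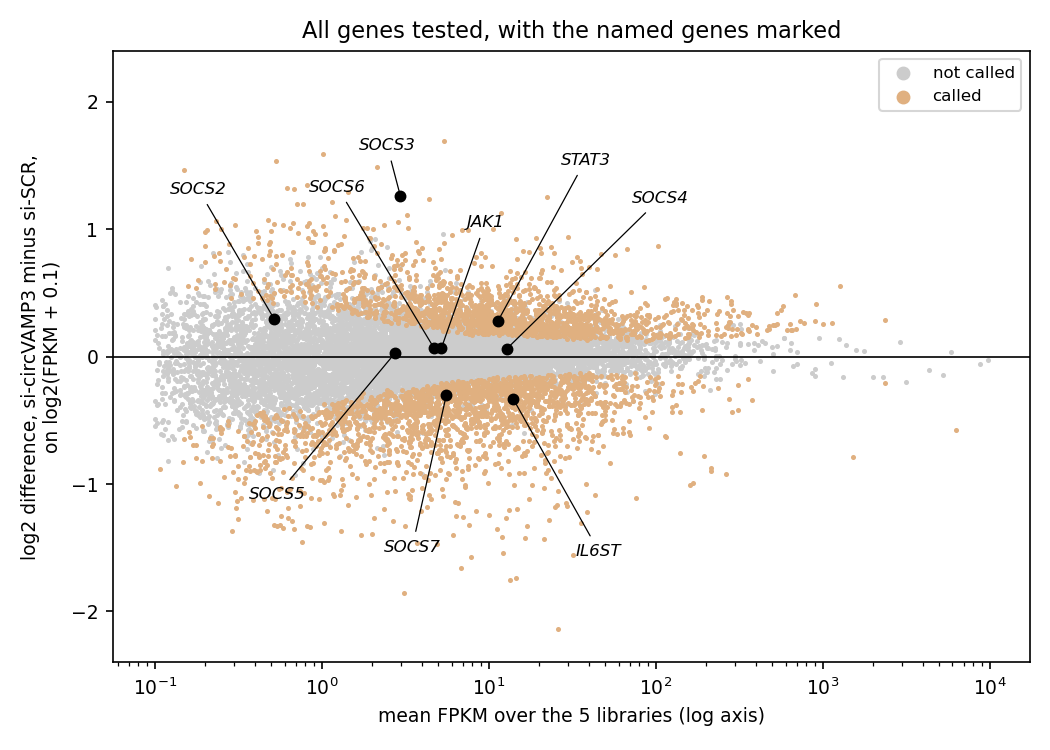
Log2 difference, si-circVAMP3 minus si-SCR (y axis), against the mean FPKM over the 5 libraries (x axis, log scale) for 13681 genes, 1 point a gene, called genes in orange, the 9 named genes in black. SOCS3 stands at 1.26, STAT3 at 0.28, SOCS7 at −0.30 and IL6ST at −0.34.

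The start of CISH, a SOCS family gene induced through STAT5, is shown because STAT proteins bind DNA at paired half-sites. The motifs TTCCNGGAA and TTCNNNGAA were searched, where the first is a case of the second and each reads alike on both strands. In windows from 250 bases before to 50 bases after the GENCODE canonical start, 138 of 12027 protein-coding genes in the table held TTCCNGGAA (1.15%) and 668 held TTCNNNGAA (5.55%). Among 63 other genes of the pathway, from the lists described after this, 1 held TTCCNGGAA and 5 held TTCNNNGAA. The 1 was CISH, whose window held 2 matches to the first motif and 4 to the second. Its 250 bases before the start lie at chr3:50611775-50612024 of GRCh38 (minus strand), with the matches in capitals.
CISH: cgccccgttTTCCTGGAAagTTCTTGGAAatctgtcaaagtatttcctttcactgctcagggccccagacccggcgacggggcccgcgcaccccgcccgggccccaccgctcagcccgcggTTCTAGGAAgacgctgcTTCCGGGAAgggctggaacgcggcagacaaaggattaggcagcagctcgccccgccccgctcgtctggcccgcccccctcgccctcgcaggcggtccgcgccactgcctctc
A match describes the letters in a window, and binding was not measured.

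Around the members, 10 lists held 90 other genes of the pathway, and 63 of them were in the table. Of these 63, 12 were called higher and 5 lower after knock-down, and 46 were not called, so 27% were called. The same rule called 27.5% of all 13681 genes, 12.8% higher and 14.7% lower, a share close to that of the lists. The median log2 difference was 0.07 over the 63 genes and 0.003 over all genes. The lists' counts fell to 8 higher and 3 lower without si-SCR replicate 2, to 6 and 2 without si-circVAMP3 replicate 1, and to 5 and 3 without si-circVAMP3 replicate 2. The counts over all genes fell with them, from 1758 higher and 2009 lower to 934 and 1223, 455 and 822, and 464 and 803. Of the 17 called pathway genes, 7 were called in each of the 5 fits that left out 1 library (CLCF1, IL27RA, PIAS3, SHC1, BCL2L1, HIF1A and TIMP1), and 10 lost the call at least once.

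Most ligands of the family had no row. IL6, IL11, LIF, OSM, IL27 and EBI3 were not in the table, and of the 3 listed here that were, 1 was called higher. CLCF1, a cytokine that signals through gp130, LIFR and CNTFR, had 1.33, 1.33 and 1.46 FPKM in the si-SCR libraries and 2.64 and 2.76 FPKM in the si-circVAMP3 libraries. Both si-circVAMP3 libraries were far above the si-SCR libraries, 1.97-fold in the mean (log2 difference 0.93 ± 0.09, limma adjusted p = 0.00133). CNTF, ciliary neurotrophic factor, had 0.867, 1.3 and 1.07 FPKM against 1.05 and 1.08 FPKM. Its groups overlapped and it was not called, with a 95% interval of −0.40 to 0.39 for the log2 difference, whose sign turned without si-SCR replicate 2 (0.13) or si-circVAMP3 replicate 1 (0.01) and with quantile normalisation (0.04).

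Among the other receptors, OSMR and CSF3R had no row, and 1 of 5 in the table was called. IL27RA, which pairs with gp130 in the interleukin-27 receptor, had 2.53, 2.52 and 2.51 FPKM in si-SCR and 3.57 and 3.83 FPKM in si-circVAMP3. Its 3 control values were nearly alike, and the difference was 1.47-fold (log2 difference 0.53 ± 0.08, limma adjusted p = 0.00413). CNTFR, the receptor subunit shared by CLCF1 and ciliary neurotrophic factor, had 1.75, 0.973 and 1.28 FPKM against 2.01 and 1.99 FPKM. Its groups did not overlap, yet the spread in si-SCR was wide and it was not called (log2 difference 0.58 ± 0.21, limma adjusted p = 0.0867). It was called without si-SCR replicate 1 (limma adjusted p = 0.0187, with a range of 0.0187 to 0.264 over 14 alternatives).

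None of the 2 other Janus kinases and none of the 3 other STAT genes listed here was called. TYK2, the more abundant kinase, ranged from 6.0 to 7.82 FPKM in si-SCR and from 6.66 to 6.92 FPKM in si-circVAMP3, with a 95% interval of −0.28 to 0.24 for the log2 difference, whose sign turned without si-SCR replicate 1 (0.07) or si-circVAMP3 replicate 1 (0.01). JAK2 had a log2 difference of −0.17 (95% interval −0.42 to 0.07). STAT2 had 3.47, 3.89 and 3.3 FPKM against 3.96 and 3.89 FPKM and was not called (log2 difference 0.14, 95% interval −0.07 to 0.35, and 0.095 without si-SCR replicate 3). STAT5B had 5.79, 6.01 and 6.66 FPKM against 5.36 and 5.31 FPKM and was not called (log2 difference −0.20 ± 0.08, limma adjusted p = 0.0951). At an unadjusted limma p under 0.05, 1 of these 5 genes passed (STAT5B), and voom on the recovered reads called 0 of the 5 after adjustment. JAK3, STAT4 and STAT6 had no row.

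Of the 2 remaining SOCS family genes, 1 was called. CISH had 0.579, 0.509 and 0.478 FPKM in the si-SCR libraries and 0.76 and 0.992 FPKM in the si-circVAMP3 libraries. It was higher in both, 1.68-fold in the mean (log2 difference 0.64 ± 0.15, limma adjusted p = 0.023). This call was lost without si-SCR replicate 2 or si-circVAMP3 replicate 2 (limma adjusted p = 0.0726 and 0.149, with a range of 0.0137 to 0.149 over 13 alternatives). SOCS1, the inhibitor of interferon and other kinase-linked receptors, had 0.459, 0.646 and 0.379 FPKM against 0.691 and 1.1 FPKM. The groups did not overlap, but the values rest on as few as 17 recovered reads and SOCS1 was not called (log2 difference 0.74 ± 0.25, limma adjusted p = 0.0668, with a range of 0.0457 to 0.346 over 13 alternatives). Its difference was 0.44 without si-circVAMP3 replicate 2 and 1.04 without si-circVAMP3 replicate 1. No exon length fixed the scale of the recovered reads of SOCS1, so their number is less certain. The SOCS box recruits a ubiquitin ligase, and none of its 8 partners in the list was called by limma, 0 passed at an unadjusted p under 0.05, and voom called 0. ELOB, the adaptor elongin B and the most abundant of them, had 119.0, 127.0 and 107.0 FPKM against 126.0 and 128.0 FPKM. RBX1, the ring subunit, had 22.1, 23.9 and 26.1 FPKM against 27.6 and 25.7 FPKM. Its groups overlapped, and it was called only without si-SCR replicate 3 among the 5 fits that left out a library (limma adjusted p = 0.0399, with a range of 0.0399 to 0.563 over 14 alternatives).

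**Figure D3:**
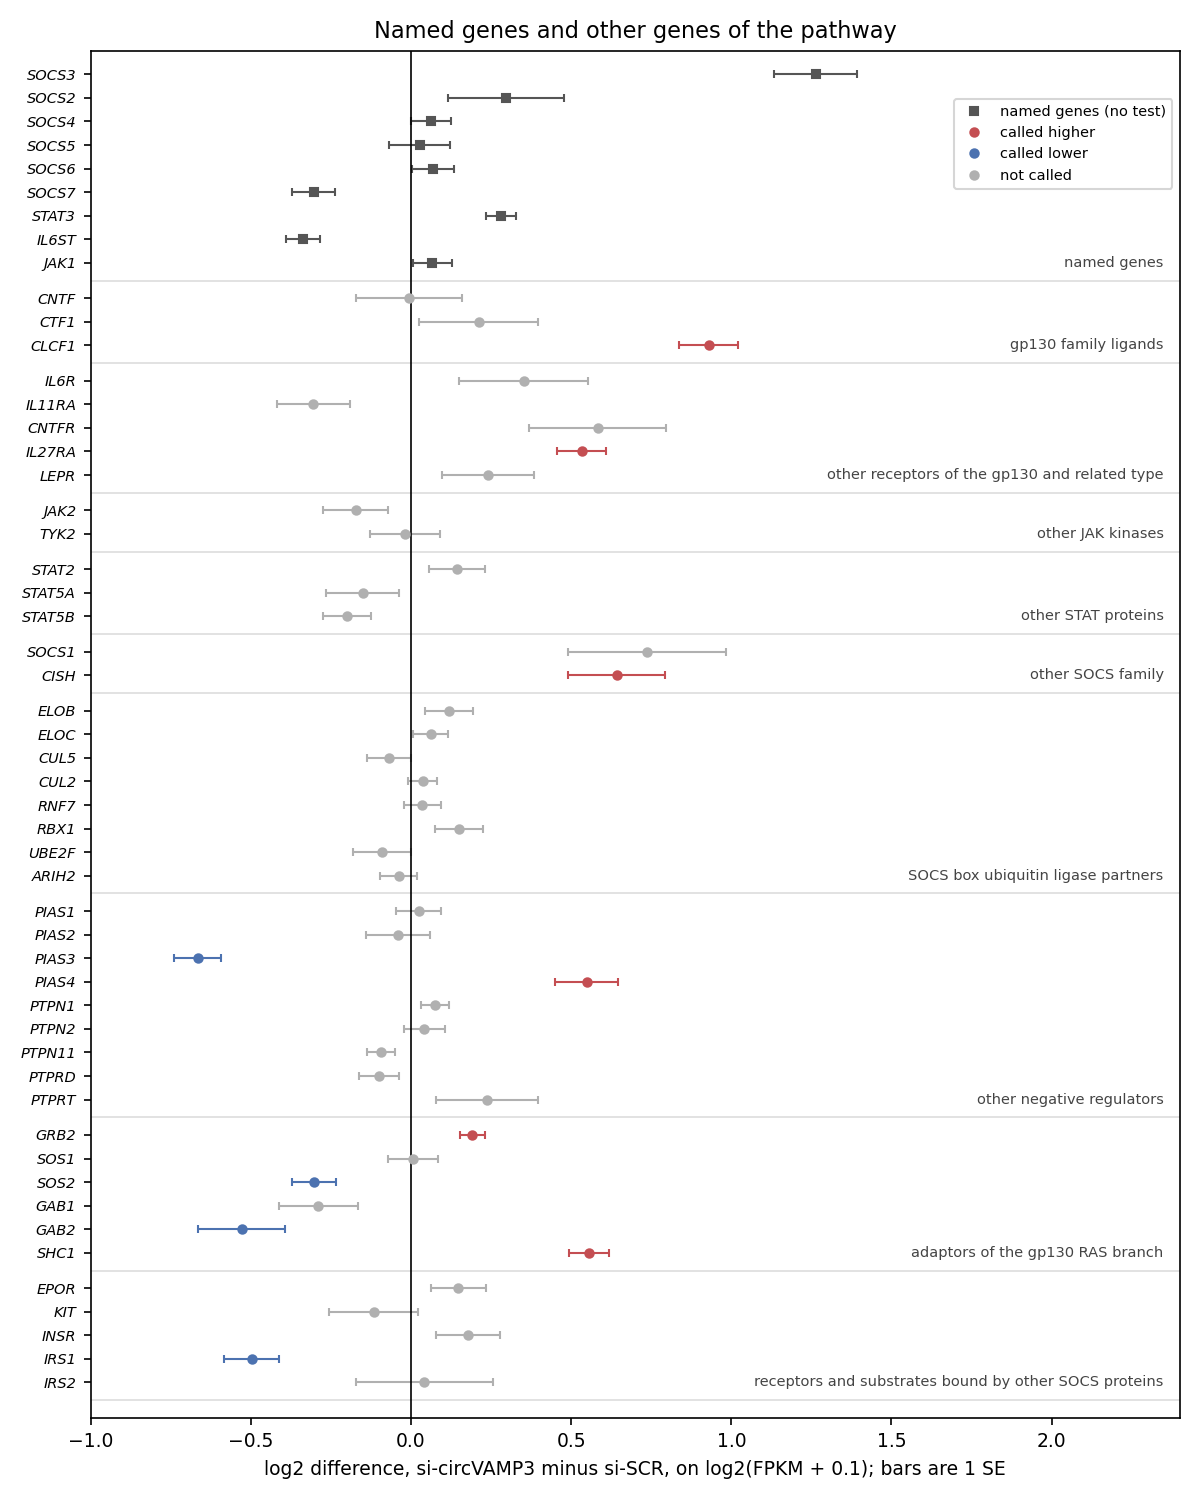
Log2 difference, si-circVAMP3 minus si-SCR, on the log2(FPKM + 0.1) scale (x axis), with bars of 1 SE, for the 9 named genes (squares, no test) and the genes of 9 of the 10 lists (circles), red where called higher, blue where called lower and grey where not called. CLCF1 stands at 0.93 and PIAS3 at −0.67, and none of the genes in the lists of other kinases, other STAT genes and SOCS box partners is called.

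The 9 other negative regulators in the table held 1 gene called in each direction. PIAS3, which binds STAT3 and blocks its hold on DNA, had 12.7, 13.5 and 14.2 FPKM in si-SCR and 8.96 and 7.96 FPKM in si-circVAMP3. Both si-circVAMP3 libraries were well below all 3 controls, 0.628-fold in the mean (log2 difference −0.67 ± 0.07, limma adjusted p = 0.00174). PIAS4, of the same family, had 6.72, 6.52 and 5.47 FPKM against 8.85 and 9.41 FPKM. It was higher in both si-circVAMP3 libraries (log2 difference 0.55 ± 0.10, limma adjusted p = 0.00843). The PIAS4 call was lost without si-circVAMP3 replicate 1 or 2 (limma adjusted p = 0.0516 and 0.0725, with a range of 0.00246 to 0.0725 over 14 alternatives). The phosphatase PTPN11, also called SHP2, docks at the same gp130 site as SOCS3 and was the most abundant of the list, at 39.3, 39.1 and 41.4 against 37.4 and 37.4 FPKM. Its log2 difference of −0.09 ± 0.04 was not called (limma adjusted p = 0.154). The receptor phosphatase PTPRD, which can dephosphorylate STAT3, overlapped between groups, at 36.3 to 37.7 FPKM against 32.1 to 36.7 FPKM.

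From PTPN11 the gp130 signal also reaches RAS, and 4 of the 6 adaptors of this branch were called, 2 in each direction, in a comparison that called 27.5% of all genes. Voom on the recovered reads called 5 of the 6 and 4231 of all 13681 genes. SHC1, an adaptor that recruits GRB2, had 45.7, 46.9 and 41.6 FPKM in si-SCR and 68.2 and 63.4 FPKM in si-circVAMP3. It was the most abundant gene of the branch and was 1.47-fold higher (log2 difference 0.56 ± 0.06, limma adjusted p = 0.00191). GRB2 itself was higher by less, at 29.2, 29.6 and 29.4 against 33.2 and 33.9 FPKM (log2 difference 0.19 ± 0.04, limma adjusted p = 0.0139). The exchange factor SOS2 was lower, at 4.36, 4.72 and 4.55 against 3.64 and 3.67 FPKM (log2 difference −0.30 ± 0.07, limma adjusted p = 0.0201). The docking protein GAB2 was lower too, at 0.454, 0.496 and 0.426 against 0.303 and 0.272 FPKM (log2 difference −0.53 ± 0.14, limma adjusted p = 0.0304). The other exchange factor, SOS1, and the other docking protein, GAB1, were not called (limma adjusted p = 0.964 and 0.13, with ranges of 0.63 to 0.969 and 0.045 to 0.553 over 14 alternatives), and voom alone called GAB1 (adjusted p = 0.045). The GRB2 and SOS2 calls were lost without si-SCR replicate 2, si-circVAMP3 replicate 1 or si-circVAMP3 replicate 2, at limma adjusted p = 0.0509, 0.0745 and 0.105 for GRB2 (0.0101 to 0.105 over 14 alternatives, and 0.0541 with eBayes without trend) and 0.0778, 0.112 and 0.102 for SOS2 (0.00788 to 0.112 over 14). The GAB2 call was lost without any 1 library other than si-SCR replicate 3, at limma adjusted p = 0.0666, 0.0991, 0.0995 and 0.152 without si-SCR replicates 1 and 2 and si-circVAMP3 replicates 1 and 2 (0.0138 to 0.152 over 13 alternatives).

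Of 5 receptors and substrates of other SOCS proteins in the table, 1 was called. IRS1, the insulin receptor substrate that SOCS proteins can mark for degradation, had 15.5, 17.3 and 14.4 FPKM against 10.6 and 11.6 FPKM. Both si-circVAMP3 libraries were lower, 0.705-fold in the mean (log2 difference −0.50 ± 0.09, limma adjusted p = 0.00759), and the call was lost without si-circVAMP3 replicate 1 (limma adjusted p = 0.0651, with a range of 0.00144 to 0.0651 over 14 alternatives). EPOR, the erythropoietin receptor, had 4.27 to 5.05 FPKM in si-SCR and 5.17 and 5.33 FPKM in si-circVAMP3 and was not called (limma adjusted p = 0.249). GHR, EGFR and IRS4 had no row.

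The list of STAT3 target genes held 32 genes, and 20 were in the table. Of these, 6 were called higher, 1 was called lower and 13 were not called, where 12.8% of all genes were called higher and 14.7% lower. No test of the list as a whole was made. Their median log2 difference was 0.18, against 0.003 over all genes. The 12 without a row were mostly acute phase genes of the liver (SERPINA3, LBP, LRG1, FGA, FGB, FGG, CRP, SAA1, HP and A2M), with ICAM1 and MUC1. BCL2L1, which encodes the survival protein BCL-XL, had 15.8, 16.9 and 15.3 FPKM in si-SCR and 23.0 and 23.5 FPKM in si-circVAMP3 (log2 difference 0.54 ± 0.06, limma adjusted p = 0.00139). The metalloprotease inhibitor TIMP1 had 33.7, 37.1 and 34.6 against 48.7 and 47.7 FPKM (log2 difference 0.46 ± 0.05, limma adjusted p = 0.00194). In both genes the 2 si-circVAMP3 libraries agreed closely and stood apart from the controls. NFKBIZ, a nuclear regulator of NF-kB, had 1.41, 1.37 and 1.26 against 1.97 and 1.78 FPKM (log2 difference 0.45 ± 0.10, limma adjusted p = 0.02). Its call was lost without si-SCR replicate 2, si-circVAMP3 replicate 1 or si-circVAMP3 replicate 2 (limma adjusted p = 0.0609, 0.137 and 0.071, with a range of 0.0126 to 0.137 over 14 alternatives).

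HIF1A, the oxygen-regulated transcription factor, was the 1 target called lower. It had 26.4, 27.3 and 27.2 FPKM in the si-SCR libraries and 15.8 and 16.3 FPKM in the si-circVAMP3 libraries. It was 0.595-fold in the mean (log2 difference −0.75 ± 0.04, limma adjusted p = 0.000209), with a spread within each group that was small beside the gap. The other 3 called targets, named because they are few and after their values were seen, were VEGFA, IRF1 and IL4R, with log2 differences of 0.41, 0.39 and 0.25. VEGFA and IL4R lost the call without si-circVAMP3 replicate 1 or 2 (limma adjusted p = 0.0919 and 0.0828 for VEGFA, 0.0743 and 0.0577 for IL4R), and IRF1 lost it without any 1 library other than si-SCR replicate 3 (limma adjusted p = 0.0517, 0.0759, 0.144 and 0.133). Their adjusted p over 14 alternatives ran from 0.00155 to 0.0919, 0.00292 to 0.0743 and 0.0142 to 0.144 for VEGFA, IL4R and IRF1. The 2 most abundant targets by the mean over the 5 libraries were not called. BIRC5, which encodes survivin, had 77.3, 77.5 and 75.9 against 75.2 and 74.8 FPKM, with a 95% interval of −0.12 to 0.05 for the log2 difference. CCND1, which encodes cyclin D1, had 56.1, 59.5 and 57.5 against 59.7 and 66.5 FPKM. Its log2 difference was 0.129 (95% interval −0.01 to 0.26), 0.207 without si-circVAMP3 replicate 1 and 0.051 without si-circVAMP3 replicate 2.

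**Figure D4:**
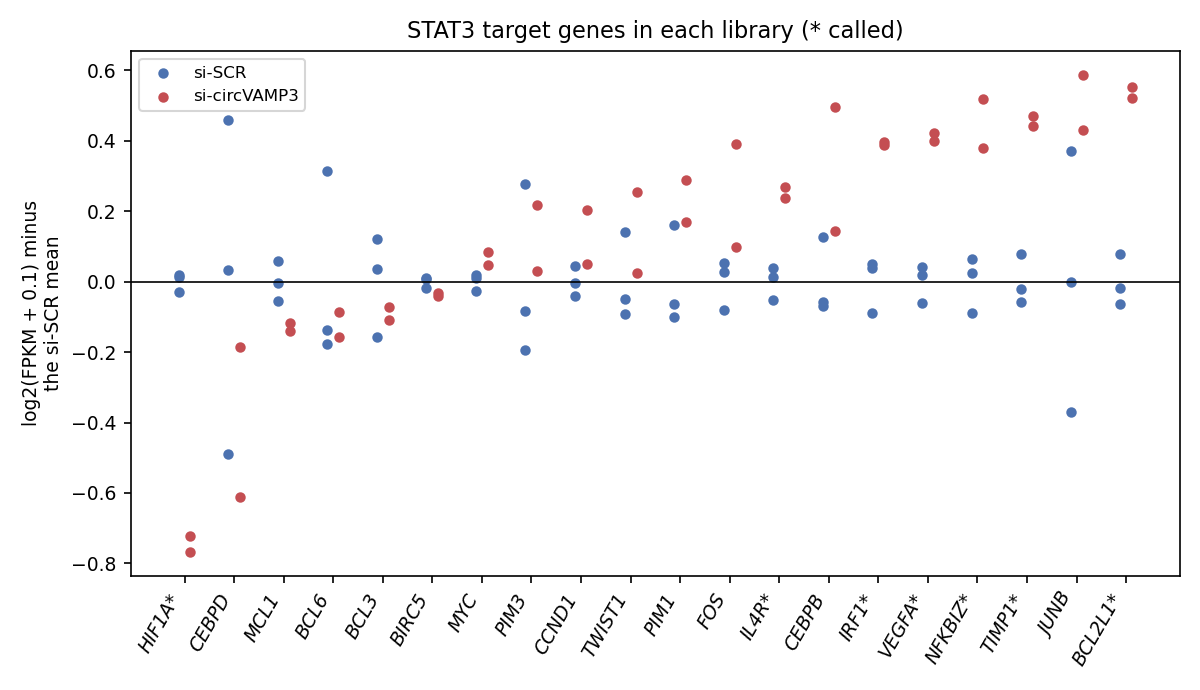
Log2(FPKM + 0.1) of 20 STAT3 target genes in each library minus the si-SCR mean of the gene (y axis), 1 point a library, si-SCR in blue and si-circVAMP3 in red, ordered by the log2 difference, with an asterisk at the 7 called genes. HIF1A lies at the low end, and BCL2L1, TIMP1 and NFKBIZ lie at the high end beside JUNB, whose si-SCR libraries were widely spread and which was called only without si-SCR replicate 1 (limma adjusted p = 0.0187).

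The genes whose pattern over the 5 libraries was most like that of SOCS3 were found by the root mean square difference of log2(FPKM + 0.1) values, each centred on the gene's own mean. Over 13680 genes compared, the median of this difference was 0.64. ZBTB7B, a zinc finger transcription factor, was closest at 0.09, with 3.19, 3.05 and 2.25 FPKM in si-SCR and 6.83 and 6.59 FPKM in si-circVAMP3. ADRA2A, an adrenergic receptor, followed at 0.10, with 2.38, 2.3 and 1.87 against 4.85 and 4.75 FPKM. MGP, a matrix protein that inhibits calcification, followed at 0.12, with 8.17, 8.3 and 7.53 against 17.1 and 18.0 FPKM. ANKRD65 at 0.13 and an Ensembl gene with no symbol, ENSG00000286169, at 0.14 came next. All 5 genes were higher in both si-circVAMP3 libraries than in each of the 3 si-SCR libraries, as the measure of likeness requires.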

How the data were processed

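Poly-A+ libraries of RH4 cells were made with a stranded kit. The authors trimmed the reads with Trimmomatic, aligned them with STAR 2.5.2b to GRCh38 and the Ensembl 99 transcriptome, counted them per gene with htseq-count and deposited FPKM values made with the edgeR rpkm function, after a filter at a CPM of 1. On the recovered reads, 624 of 13822 genes (4.51%) had a CPM under 1 in at least 3 libraries. Whole reads came out of the ratios of FPKM between libraries for 100.0% of the genes, and GENCODE v44 exon lengths fixed their scale for 9506 genes (68.8%, tolerance 1e-06). Symbols were found for 13783 of 13822 identifiers.

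Genes with a mean FPKM of at least 0.1 (13681) were tested with limma 3.58.1 in R 4.3.3 (lmFit, eBayes with trend) on log2(FPKM + 0.1), with Benjamini-Hochberg adjustment over all of them and no covariate. The test was checked on simulated data with log2 changes of 1 in either direction, and smaller changes were not checked. The members and lists were chosen with earlier results of these data known. After the fits, 2 genes were taken out of the lists and their counts, and they and 1 sequence are not reported here. The text names the members, VAMP3, and up to 4 called genes and the 2 most abundant genes of each list, by the mean over the 5 libraries. It also names 3 further called STAT3 targets, SOS1, GAB1 and JUNB (picked after their values were seen) and the 5 genes most like SOCS3. Of the cell type markers it names the most abundant and, after their values were seen, the called ones and CDH15. Alternatives varied the pseudocount, filter, scaling, variance model, call rule, replicate block and libraries.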

Additional observations from a re-analysis of the deposited data

How the results depend on the processing

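The SOCS3 difference ran from 0.97 to 1.36 over 14 alternatives. Its groups do not overlap, so leaving out a library could not turn its sign. The filter and variance model alternatives leave its value unchanged by construction. The lowest value, 0.97, came with a pseudocount of 1, which shrinks differences of low genes by construction. Without 1 library the SOCS3 difference ran from 1.16 to 1.36. SOCS5 changed sign in 2 of its 14 alternatives, and the other members in none of theirs. With the added rule of a log2 difference above 0.58, 227 genes were higher and 566 lower (28.6% higher, against 46.7% of calls in the main test), and 2 and 2 of the pathway genes. Without 1 library, genes called higher ran from 455 to 1962, genes called lower from 803 to 2052, pathway genes higher from 5 to 13 and pathway genes lower from 2 to 5; without si-circVAMP3 replicate 1 or 2, 35.6% and 36.6% of the calls were higher. Those last 2 fits have 1 si-circVAMP3 library, assumed to vary like the others. The replicate numbers did not pair the libraries (correlation of deviations −0.088 for replicate 1 and −0.016 for replicate 2 over 13681 genes). With the replicate block, 1314 genes were higher and 1554 lower, pathway genes 9 and 3, and the SOCS3 difference was 1.16. No si-circVAMP3 library shares a number with si-SCR replicate 3, so the block gives that library no part in the difference. The block and the fit without si-SCR replicate 3 thus give a gene the same difference, and they are not separate checks of its size. The block ended the calls of CISH, SOS2, GAB2, NFKBIZ, VEGFA, IRF1, FOXO1 and PDGFRB (limma adjusted p from 0.0514 to 0.109). It gained calls of SOCS1, FGFR4 and CDH15 (limma adjusted p = 0.0457, 0.0224 and 0.0251). FGFR4 and CDH15 were also called without si-SCR replicate 3 and no block, and SOCS1 was not (limma adjusted p = 0.00419, 0.00577 and 0.111). TYK2, not called, had a difference of −0.018, which ran from −0.115 to 0.073 without 1 library and changed sign without si-SCR replicate 1 (0.073) and without si-circVAMP3 replicate 1 (0.009); CNTF, not called, had −0.007, which ran from −0.143 to 0.126 without 1 library and changed sign without si-SCR replicate 2 (0.126), without si-circVAMP3 replicate 1 (0.01) and with quantile normalisation (0.037). The cause was not tested. Among the pathway genes picked by rule (up to 4 called and the 2 most abundant of each list), 358 values kept their direction and their side of the threshold, 23 lost the call, 3 gained it and 5 changed sign. Rescaling by size factors or by quantiles moved the median of all genes to 0.007 and 0.019. Voom on the recovered reads, added after seeing the data, called 4231 genes. SOCS2, SOCS1 and CISH had as few as 58, 17 and 61 recovered reads in a library, and no exon length fixed this scale for SOCS1 and CISH. PECAM1, CNTF, GAB2, PDGFRB, CNTFR and CLCF1 had as few as 15, 37, 38, 40, 51 and 61 reads. Counting error bears on all of these genes, and its part in their spread was not tested. The 2 si-circVAMP3 libraries give little hold on their own spread. RNA levels do not give protein levels or phosphorylation of STAT3.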
